A study of Mus musculus with 12 samples.

Results

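Ribosome footprints were compared with total RNA in B16 cells, a mouse melanoma line, that carried a lentiviral shRNA with no relevant target (shControl, written shCTL in some labels). The comparison took in the 6 shControl libraries of the 12 in the series: 3 libraries of ribosome-protected fragments (RPF) and 3 of total RNA, lettered A, B and C. The labels name an RNA partner with the same letter for every RPF library, so each letter gave 1 ratio of footprints to RNA per gene. The other 6 libraries carried an shRNA against Elp3 and were not used in these values. All cells were grown in serum-containing DMEM, no drug or time course is named in the labels, and every cell here had been transduced with virus. Whether the letters came from separate transductions is not said in the labels. The p-values therefore reflect how far these 3 cultures differed, which may be technical.

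A ribosome shields a short stretch of mRNA from nuclease, and the shielded fragments, when sequenced, count the ribosomes on each gene's mRNA. Dividing them by the RNA of the same culture gives the ribosome load per mRNA, often called translational efficiency. Whether coding sequence or whole exons were counted here is not given in the sources used. If whole exons were counted, differences between genes would also depend on how much of each RNA is untranslated. Some classes of mRNA are known for a load that is set by their own sequence. Examples are ribosomal protein mRNAs, which begin with a terminal oligopyrimidine (TOP) run that mTOR signalling acts through, mRNAs with upstream open reading frames, and ferritin mRNAs, which iron regulatory proteins hold back.

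The RNA libraries held 10245215 to 16510699 counts and the RPF libraries 7625279 to 10998570. Of 24421 gene symbols in the table, 10583 had enough counts in both fractions to be tested. Markers of the melanocyte lineage were present: in RNA, counts over the 3 letters were 31246 to 41201 for Tyrp1, 51160 to 58463 for Dct, 20721 to 23913 for Pmel, 1755 to 2602 for Mlana, 1219 to 2874 for Mitf, 1400 to 2793 for Sox10 and 246 to 332 for Tyr. Kit and Ednrb, 2 receptors of the lineage, had at most 2 counts in any library. The leukocyte marker Ptprc was at 0 in all 6 libraries, and 2 of 15 macrophage and leukocyte markers (Cd68 and Lyz2), 4 of 10 fibroblast markers and 0 of 10 epithelial markers passed the count minimum.

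The letter A cultures stood apart from B and C in both fractions. The SD over genes of the log2 difference between letter A and the mean of B and C was 0.996 in RNA and 0.714 in RPF, against 0.250 and 0.285 for letter B against C. Ribosomal protein genes took 12.1% of RNA counts in letter A, 6.14% in B and 6.03% in C, while their share of RPF counts was 3.17%, 3.49% and 3.79%. The log2 ratio of footprints to RNA correlated across genes with Pearson's r = 0.959 between B and C, 0.632 between A and B and 0.607 between A and C (10583 genes, which are not independent replicates). The 3 letters gave a ratio on the same side of 0 for 7025 genes (66.4%), and B and C alone for 92.2%. For 2199 genes the ratio in letter A lay more than 1 log2 unit above both B and C or more than 1 below both. Counts of calls without letter A are therefore given beside the gene lists, with those without B or C where they differ much.

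**Figure D1:**
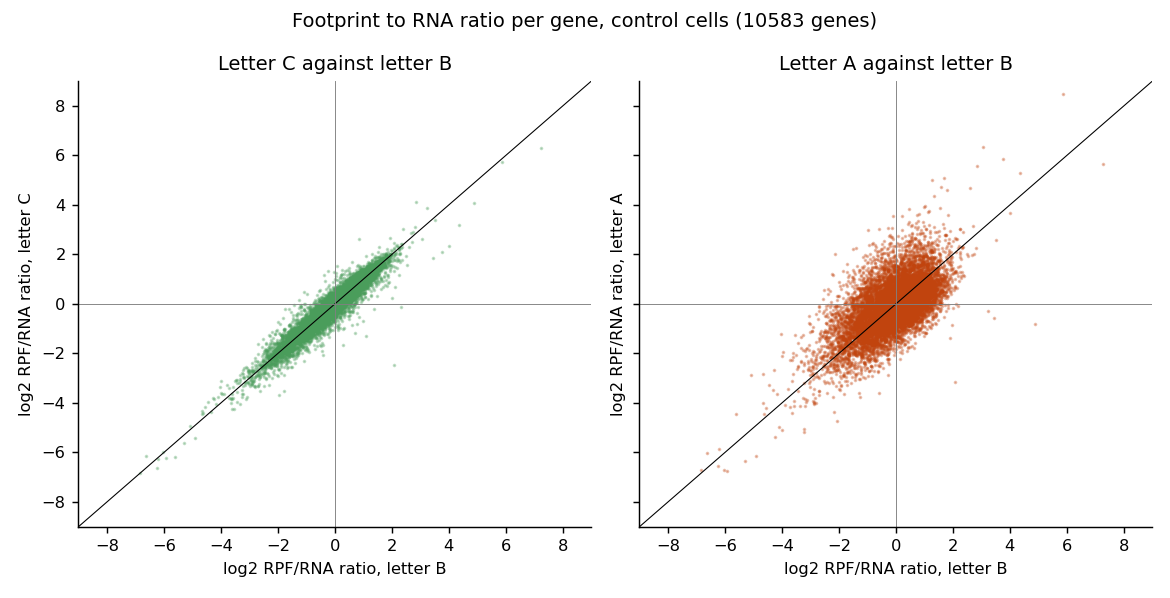
The log2 footprint to RNA ratio of each of 10583 genes in letter B (horizontal axis) against letter C (left panel) and letter A (right panel), with 1 dot per gene and the diagonal as a line. Letters B and C lie close to the diagonal (r = 0.959), and letter A scatters widely around it (r = 0.632).

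Footprints spread unevenly over the mRNAs of these cells. Ratios are relative to the centre of all genes after scaling, so a ratio of 0 is the typical gene and a log2 ratio of -1 is 2-fold fewer footprints per RNA than that. The fitted log2 ratio had an SD of 0.949 over genes, and its 5th and 95th percentiles, -1.76 and 1.22, lay 7.92-fold apart. The median standard error (SE) of a ratio was 0.22. In edgeR's quasi-likelihood test with Benjamini-Hochberg adjustment (threshold 0.05), 1608 genes (15.2%) were higher in footprints than in RNA and 2128 (20.1%) were lower. With letters B and C alone, 4159 of 10920 genes (38.1%) were higher and 4373 (40.0%) were lower. All 3736 genes called with 3 letters kept their call and direction there. Letters B and C are part of the 3-letter fit and most genes were called from them, so this is not independent support. Without letter B the counts were 530 higher and 1089 lower of 10627 genes, and without letter C they were 653 and 1226 of 10598. DESeq2 on all 3 letters called 2048 higher and 2131 lower of 10583. The counts of called genes in each list read against 15.2% higher and 20.1% lower among all genes with 3 letters, and against 38.1% and 40.0% without letter A. List counts without B, without C or from DESeq2 read against the totals for all genes just given.

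RNAs that are not translated lay at both ends of the scale, with long noncoding RNAs mostly low and small structured RNAs mixed. Of 130 long noncoding RNAs tested, 76 were lower in footprints and 1 was higher, with a median log2 ratio of -1.26 against -0.01 for 10379 protein-coding genes. Malat1, a nuclear RNA, had 29724, 21329 and 14444 library-scaled CPM of RNA in letters A, B and C and 322, 282 and 145 CPM of footprints. Its footprint level was 88.7-fold below its RNA level (log2 ratio -6.47, SE 0.37, edgeR adjusted p = 0.0059). Neat1, the RNA that paraspeckles form around, stood at -5.49 (SE 0.41), and 2900097C17Rik at -6.84 (SE 0.22). For each of these 3 genes the RNA values lay above the footprint values in all letters, with no overlap. Small structured RNAs differed widely among themselves. Rnu11, a small nuclear RNA of the minor spliceosome that has no coding sequence, had 512, 587 and 631 RNA counts and 88313, 29611 and 31370 RPF counts. Its log2 ratio of 6.63 was the highest of all genes tested. Of 20 small nucleolar RNAs, 8 were higher and 2 lower, and the highest ratio was 6.43. The other 2 small nuclear RNAs were not called, 2 of 3 RNAs annotated as guide RNAs were lower and 1 higher, and the RNase P RNA, Rpph1, was at -1.14 (SE 0.49) and not called.

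Noncoding hosts of small nucleolar RNAs are spliced transcripts, several of which begin with a TOP run and are known to meet ribosomes. Of the 10 tested, 7 were lower in footprints and 0 higher, with a median of -1.58, which lies between the coding genes and the nuclear RNAs. Gas5 had 368, 143 and 115 CPM of RNA and 222, 69.3 and 31.9 CPM of footprints, a log2 ratio of -1.20 (SE 0.26, edgeR adjusted p = 0.0256). Snhg5 was at -3.03 (SE 0.36).

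Messenger RNAs of ribosomal proteins lay on the low side of the scale. Of 31 small-subunit genes tested, 8 were lower in footprints, a share near the 20.1% of all genes, and 0 were higher, with a median log2 ratio of -1.05. Of 44 large-subunit genes, 16 were lower and 0 higher, with a median of -0.98. DESeq2 called 21 and 27 of them lower. Over all genes tested the median was -0.02. The fitted ratio was below 0 for 31 of 31 and 42 of 44 genes, and it was below 0 within each of the 3 letters for 24 of 31 and 37 of 44, against 35.0% of all genes tested. Many ribosomal protein genes have processed copies elsewhere in the genome. How reads that match several places were counted is not given in the sources used here. Single values in these families, their medians and the counts below 0 are therefore uncertain.

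Rpsa, a small-subunit protein that doubles as a laminin receptor precursor, had 4301, 1663 and 1493 CPM of RNA in letters A, B and C and 386, 423 and 401 CPM of footprints. Its RNA differed widely between letters while its footprints lay close together, and the groups did not overlap (log2 ratio -2.44, SE 0.41, edgeR adjusted p = 0.0141). Rplp0, part of the stalk of the large subunit, went from 3597, 1437 and 1176 CPM of RNA to 488, 396 and 403 CPM of footprints (-2.09, SE 0.34, edgeR adjusted p = 0.0133). Rps2, which lies at the mRNA entry of the small subunit, had a ratio of -1.96 (SE 0.23), with -2.25, -2.02 and -1.60 in the 3 letters. Rps13 at -0.07 (SE 0.39) and Rpl27 at 0.43 (SE 0.45) were the highest of each subunit and were not called. The ratio was lowest in letter A for 31 of 31 small-subunit and 44 of 44 large-subunit genes, and the median ratios in letters A, B and C were -1.98, -0.64 and -0.48 for the small and -1.80, -0.58 and -0.41 for the large subunit. In letter A the RNA of the median gene was 1.41 (small) and 1.36 (large) log2 units above the mean of B and C, and its footprints were 0.15 and 0.03 below. Without letter A, 23 small-subunit genes were lower and 3 higher, and 35 large-subunit genes were lower and 2 higher. With B left out, 10 small-subunit and 6 large-subunit genes were lower, and with C left out, 13 and 15 were.

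Elongation factors and other mRNAs known for a TOP start were mixed once letter A was left out. Of 14 tested with 3 letters, 6 were lower in footprints and 0 higher (median -1.07). From B and C alone, 10 of 15 were lower and 5 higher (median -0.71), and with B left out 2 were lower. Eef2, which moves the ribosome along the mRNA, had 12085, 6322 and 6029 CPM of RNA and 2127, 2272 and 2381 CPM of footprints (-1.77, SE 0.35, edgeR adjusted p = 0.0206). Pabpc1, the cytoplasmic poly(A)-binding protein, had 687, 1967 and 1925 CPM of RNA and 235, 491 and 449 CPM of footprints (-1.88, SE 0.23, edgeR adjusted p = 0.00796). For Pabpc1, unlike the ribosomal protein genes, letter A held the smallest amount of RNA and the ratio closest to 0. Eif4b, a cofactor of the helicase that unwinds mRNA leaders, was at -2.06 (SE 0.34) and Tpt1, a translationally controlled growth protein, at -1.05 (SE 0.19). Npm1, a nucleolar chaperone, was at 0.41 (SE 0.44) and was not called, with -0.83 in letter A, 0.90 in B and 1.10 in C, and it was among the 5 called higher from B and C alone.

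The annotated starts of 5 ribosomal protein mRNAs and of Eif3f, a member of the TOP list, are given to show what such a run looks like. They were read from RefSeq start sites on GRCm38.p6, with 10 bases before the start in lower case and 20 from it. Capitals mark the run of C and T that begins with a C at the annotated start. The windows are chr7:118116128-118116157 (minus strand) for Rps15a, chr7:141447641-141447670 (plus) for Rplp2, chr7:108934405-108934434 (plus) for Eif3f, chr4:86857348-86857377 (minus) for Rps6, chr19:6057937-6057966 (plus) for Fau and chr14:18270967-18270996 (minus) for Rpl15.
Rps15a: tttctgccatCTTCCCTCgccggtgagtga
Rplp2: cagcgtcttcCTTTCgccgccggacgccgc
Eif3f: tctaggctctCTCTCTTTCTCggcaagatg
Rps6: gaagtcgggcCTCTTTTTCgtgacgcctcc
Fau: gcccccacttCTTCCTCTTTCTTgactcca
Rpl15: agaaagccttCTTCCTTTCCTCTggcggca

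The first 3 of these genes were lower in footprints, at -1.48 (SE 0.32) for Rps15a, -0.86 (SE 0.25) for Rplp2 and -0.75 (SE 0.20) for Eif3f, a subunit of the initiation factor that recruits the small subunit. Rps6, the substrate of S6 kinase, at -0.95 (SE 0.33) and Fau, which is made as a fusion with a ubiquitin-like domain, at -0.97 (SE 0.36) were not called. Rpl15 carries a run of 13 such bases and stood at 0.23 (SE 0.49). All of these genes were chosen after their values were seen, so they do not show how often such genes were lower. Of the 13 ribosomal protein genes with a TOP-like start, 2 were lower in footprints (15.4%, against 20.1% of all genes tested) and 0 higher.

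A start of this kind, a C at the annotated start followed by at least 4 C or T on the transcribed strand, was found in 2.50% of 32851 RefSeq start windows. Start windows were matched to 8600 of the tested genes (81.3%), and 256 of those (2.98%) had such a start at 1 or more of their windows. Their median log2 ratio was -0.35, against -0.01 in the 8344 genes without one. The medians were -0.41, -0.32 and -0.33 in letters A, B and C with the start and -0.08, -0.02 and 0.00 without. With the 3 translation lists left out, 240 genes with the start had a median of -0.27. Among ribosomal protein genes the start did not separate high from low: 13 of the 55 with a window (23.6%) had it, with a median of -0.86, and the 42 without it had a median of -1.04. A RefSeq start can lie a few bases from the start used in these cells, so a missing match says only that these letters are not at the annotated base.

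The GC content of the first 50 transcribed bases went with the ratio as well, a feature that was looked at after other results were known. In 5 groups of rising GC content the median log2 ratio was 0.10, 0.11, 0.05, -0.09 and -0.34, with group medians of 54.0% to 79.0% GC. In the group with the highest GC content, 31.6% of 1581 genes were lower in footprints and 9.87% were higher, against 16.3% and 18.3% of 2019 genes in the group with the lowest. The step from the lowest to the highest group was from 0.16 to -0.45 in letter B, from 0.19 to -0.42 in C and from -0.04 to -0.23 in A. Across genes Spearman's rho was -0.16 for the fitted ratio, -0.05 in letter A, -0.20 in B and -0.19 in C. An ATG within those 50 bases, present in 44.3% of all windows, made little difference: the median was -0.03 in 3139 genes with it and -0.01 in 5461 without.

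**Figure D2:**
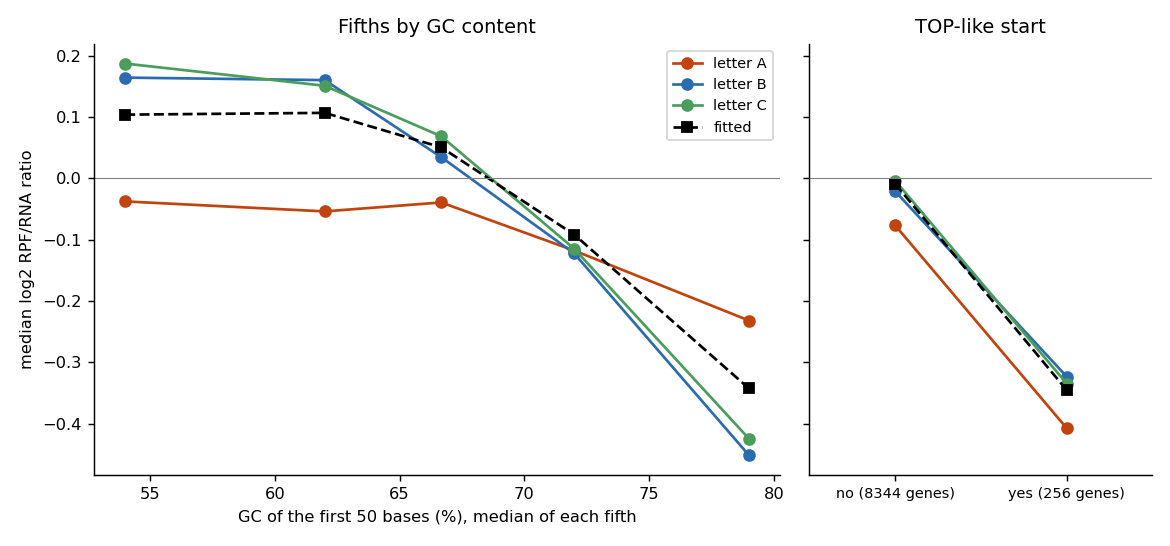
Median log2 footprint to RNA ratio by GC content of the first 50 bases in 5 groups of genes (left panel, % GC on the horizontal axis) and by presence of a TOP-like start (right panel), for each letter (colours) and the fitted ratio (black squares). The median fell from 0.10 to -0.34 with rising GC, less so in letter A, and lay at -0.35 with a TOP-like start.

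Initiation factors had a median ratio of 0.50, on the other side of 0 from the ribosomal proteins. Of 33 tested, 5 were higher, which is the 15.2% of all genes, and 0 lower. The higher and lower counts were 24 and 4 without letter A, 1 and 0 without B or C, and 11 and 0 with DESeq2. Eif5b, which joins the ribosomal subunits, had 46.0, 87.9 and 102 CPM of RNA and 117, 201 and 220 CPM of footprints (1.21, SE 0.16, edgeR adjusted p = 0.00933). Eif5a, the factor that eases peptide bond formation at stalled ribosomes, was at 1.06 (SE 0.19) and the eIF2B subunits Eif2b3 and Eif2b1 at 1.22 and 0.87, while a further subunit, Eif2b5, was at -0.62 (SE 0.26) and not called. Aminoacyl-tRNA synthetases, which charge tRNAs, had 10 of 20 higher and 0 lower, with a median of 0.75 (19 higher without letter A, 1 without B or C). Rars was at 1.49 (SE 0.20), Iars at 1.07 (SE 0.18) and Wars at 1.03 (SE 0.16). Qars, the lowest, was at -0.15 with 3 letters and at 0.49 without letter A.

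Regulators of initiation and elongation did not share a direction, with 1 of 17 higher, 3 lower and a median of -0.06, whose sign depended on the scaling (5 higher and 11 lower without letter A). Pdcd4, which blocks the eIF4A helicase, was the one that was higher (1.11, SE 0.16, edgeR adjusted p = 0.0104). Eif4ebp1, the mTOR-controlled inhibitor of cap binding, had 204, 129 and 146 CPM of RNA and 109, 79.4 and 83.9 CPM of footprints (-0.80, SE 0.16, edgeR adjusted p = 0.0195). The S6 kinase gene Rps6kb1 (-0.74, SE 0.17) and the amino acid sensor Eif2ak4 (-0.72, SE 0.17) were lower as well. Eif4ebp2 differed between letters, at -0.08 in A, -2.44 in B and -2.67 in C, and was not called.

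mRNAs known for upstream open reading frames, short reading frames in the leader that hold back ribosomes from the main one, were low. Of 9 tested, 6 were lower in footprints and 0 higher, with a median of -1.12 (8 lower without letter A, 3 without B or C). Cebpb (chromosome 2, 167688915 to 167690432), a transcription factor whose leader sets which isoform is made, had 141, 76.5 and 99.9 CPM of RNA and 30.8, 23.5 and 25.2 CPM of footprints. The 2 fractions did not overlap (-1.96, SE 0.19, edgeR adjusted p = 0.00615). Atf5, a stress-response factor, had 327, 545 and 692 RNA counts and 48, 142 and 142 RPF counts (-1.89, SE 0.21, edgeR adjusted p = 0.00695). The phosphatase subunits that reverse eIF2 phosphorylation, Ppp1r15b (-1.51, SE 0.17) and Ppp1r15a (-1.13, SE 0.20), were lower, as were the sugar transporter Slc35a4 (-1.12, SE 0.19) and Ibtk (-0.77, SE 0.20).

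The 3 others were not called. Atf4, the main effector of the integrated stress response, was at -0.50 (SE 0.18, edgeR adjusted p = 0.083), with 433, 255 and 303 CPM of RNA and 271, 209 and 211 CPM of footprints. Ddit3, which encodes the stress factor CHOP, was at -0.48 (SE 0.23) and Ifrd1 at -0.01 (SE 0.17). Ddit3 RNA was 890 CPM in letter A against 188 and 182 CPM in B and C, and its footprints were 569 CPM against 188 and 105, so its level stood apart in letter A in both fractions. The 9 ratios ran from -0.16 to -2.19 in letter A, and the list's median was -0.86, -1.17 and -1.04 in letters A, B and C.

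Several polyamine genes were lower in footprints. Odc1, the first enzyme of polyamine synthesis, had 462, 268 and 278 CPM of RNA and 91.9, 90.4 and 94.7 CPM of footprints. Footprints of Odc1 were near equal in the 3 letters while its RNA was highest in letter A (-1.81, SE 0.23, edgeR adjusted p = 0.00906). Oaz2, an antizyme that needs a ribosomal frameshift, was at -1.43 (SE 0.20), Azin1, the antizyme inhibitor, at -0.88 (SE 0.19) and the spermine oxidase Smox at -1.26 (SE 0.18). The synthases Srm (0.52, SE 0.21) and Sms (-0.53, SE 0.25) were not called. In all, 4 of 8 were lower, 0 higher, and the median was -0.70 (5 lower and 2 higher without letter A). Oaz1, with 77 to 177 RNA counts and 0 to 5 RPF counts, did not pass the count minimum in RPF.

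Of 10 iron genes, 2 were lower and 2 higher, shares near those of all genes, and without letter A 7 of 11 were lower and 3 higher. The 2 lower ones were the ferritin subunits, which store iron. Ftl1 (chromosome 7, 45457944 to 45459886) had 8339, 4522 and 3420 CPM of RNA and 458, 194 and 190 CPM of footprints, 19.7-fold less (log2 ratio -4.30, SE 0.27, edgeR adjusted p = 0.0059). Its ratios were -4.19, -4.54 and -4.17 in letters A, B and C. Fth1 (chromosome 19) had 2084, 2723 and 2566 CPM of RNA and 485, 169 and 296 CPM of footprints, 8.45-fold less (-3.08, SE 0.44, edgeR adjusted p = 0.0108), with a smaller difference in letter A (-2.10) than in B (-4.01) and C (-3.12). Ferritin genes have processed copies, which makes both values uncertain in size.

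Tfrc, the transferrin receptor that brings iron in, was one of the 2 higher genes, neither of which was called when B or C was left out. It had 1149, 663 and 474 CPM of RNA and 1819, 1383 and 1135 CPM of footprints (0.99, SE 0.23, edgeR adjusted p = 0.0283). The 2 fractions of Tfrc overlapped across letters, and within each letter footprints were the higher. Aco1, the aconitase that doubles as iron regulatory protein 1, was at 0.73 (SE 0.16, edgeR adjusted p = 0.026). The remaining 6 of 10 genes of the list were not called, among them Ireb2 (-0.34, SE 0.20), which encodes the other iron regulatory protein, and the iron transporter Slc11a2 (-0.28, SE 0.16). Epas1, whose leader also holds an iron-responsive element, differed in sign between letter A (1.28) and letters B and C (-1.71 and -1.24).

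**Figure D3:**
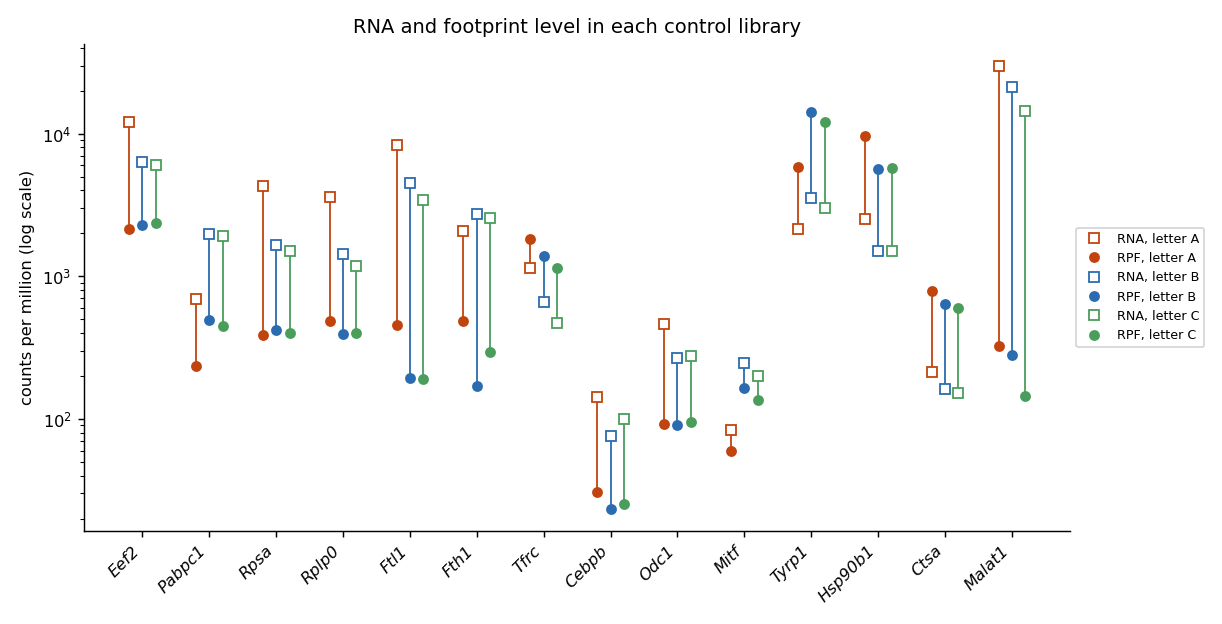
RNA level (open squares) and footprint level (filled circles) in CPM on a log axis for 14 genes in each control library, with a line joining the pair of each letter. Footprints lie below RNA in all 3 letters for Eef2 through Fth1, Cebpb, Odc1, Mitf and Malat1, and above it for Tfrc, Tyrp1, Hsp90b1 and Ctsa; levels of different genes are not corrected for length.

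Selenoprotein mRNAs, in which a UGA codon is read as selenocysteine, were split. Of 18 tested, 7 were lower and 3 higher, with a median of -0.10 (8 and 6 without letter A, 4 and 1 without B or C). Sephs2, which makes the selenium donor and is itself a selenoprotein, had 69.9, 48.2 and 53.8 CPM of RNA and 10.6, 8.90 and 10.5 CPM of footprints (-2.51, SE 0.19, edgeR adjusted p = 0.0059). Selt (-1.89, SE 0.19), Sepw1 (-1.81, SE 0.30) and the glutathione peroxidases Gpx4 (-1.04, SE 0.22) and Gpx1 (-0.86, SE 0.16) were lower. Gpx4, which guards membranes against lipid peroxides, had 2521 CPM of RNA in letter A against 710 and 625 in B and C. The higher members were Vimp (1.35, SE 0.21), Msrb1 (0.63, SE 0.16) and Txnrd3 (0.57, SE 0.16). Txnrd1, the cytosolic thioredoxin reductase, was not called.

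Elongator, which begins the modification of the wobble uridine of a set of tRNAs, and the enzymes that complete it had 3 of 14 higher and 1 lower (6 and 3 without letter A, 1 and 1 without B or C). Their median was -0.04 and changed sign with the scaling. Elp2, a scaffold subunit, had 53.2, 62.5 and 62.2 CPM of RNA and 140, 173 and 171 CPM of footprints, with ratios of 1.39, 1.47 and 1.46 in the 3 letters (1.44, SE 0.16, edgeR adjusted p = 0.00683). Elp4, a subunit of the same complex, was at 0.86 (SE 0.18). Elp3, the catalytic subunit, had 86.6, 67.8 and 65.5 CPM of RNA and 102, 96.7 and 119 CPM of footprints (0.54, SE 0.19, edgeR adjusted p = 0.0823) and was not called. Urm1, the sulphur carrier of the thiolation step, was lower (-1.32, SE 0.33, edgeR adjusted p = 0.0362), and Ctu1, Ctu2 and Alkbh8, at -0.14, -0.59 and 0.42, were not called.

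Pigment cell genes with structural or enzymatic roles carried many footprints. Of 14 melanosome proteins and pigment enzymes tested, 7 were higher and 0 lower, with a median of 0.92. Tyrp1, an enzyme of melanin synthesis, had 2147, 3551 and 2997 CPM of RNA and 5811, 14071 and 11967 CPM of footprints (1.81, SE 0.30, edgeR adjusted p = 0.0136). Slc24a5, a melanosomal ion exchanger, had 37.0, 96.8 and 92.0 CPM of RNA and 76.9, 473 and 376 CPM of footprints, with groups that overlapped because both fractions were low in letter A (1.80, SE 0.29, edgeR adjusted p = 0.0134). The glycoprotein Gpnmb (1.53, SE 0.28), the amyloid fibril protein Pmel (1.14, SE 0.32) and the tautomerase Dct (1.09, SE 0.31) were higher. Tyr, the rate-limiting enzyme of melanin synthesis, was at -0.48 in letter A and at 1.35 and 1.47 in B and C and was not called (0.82, SE 0.44). The median of the list was 0.40 in letter A against 1.18 and 1.29 in B and C, and without letter A, 11 of 14 were higher and 2 lower. Without B or C, 1 was higher.

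Of 6 melanocyte regulators, 2 were lower and 0 higher (2 and 1 without letter A, 1 and 0 without B or C). Mitf, the master transcription factor of the lineage, had 83.8, 248 and 200 CPM of RNA and 59.4, 165 and 135 CPM of footprints. Its amount of RNA in letter A was well below B and C, yet the ratio was -0.50, -0.58 and -0.57 in the 3 letters (-0.55, SE 0.15, edgeR adjusted p = 0.0459). Mc1r, the melanocortin receptor, had 122, 302 and 288 CPM of RNA and 64.0, 81.9 and 72.0 CPM of footprints (-1.61, SE 0.27, edgeR adjusted p = 0.0142). In bulk libraries such as these, fewer cells of a kind and less RNA per cell cannot be told apart. Sox10 was at 1.55 in letter A and at 0.35 and 0.05 in B and C and was not called.

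**Figure D4:**
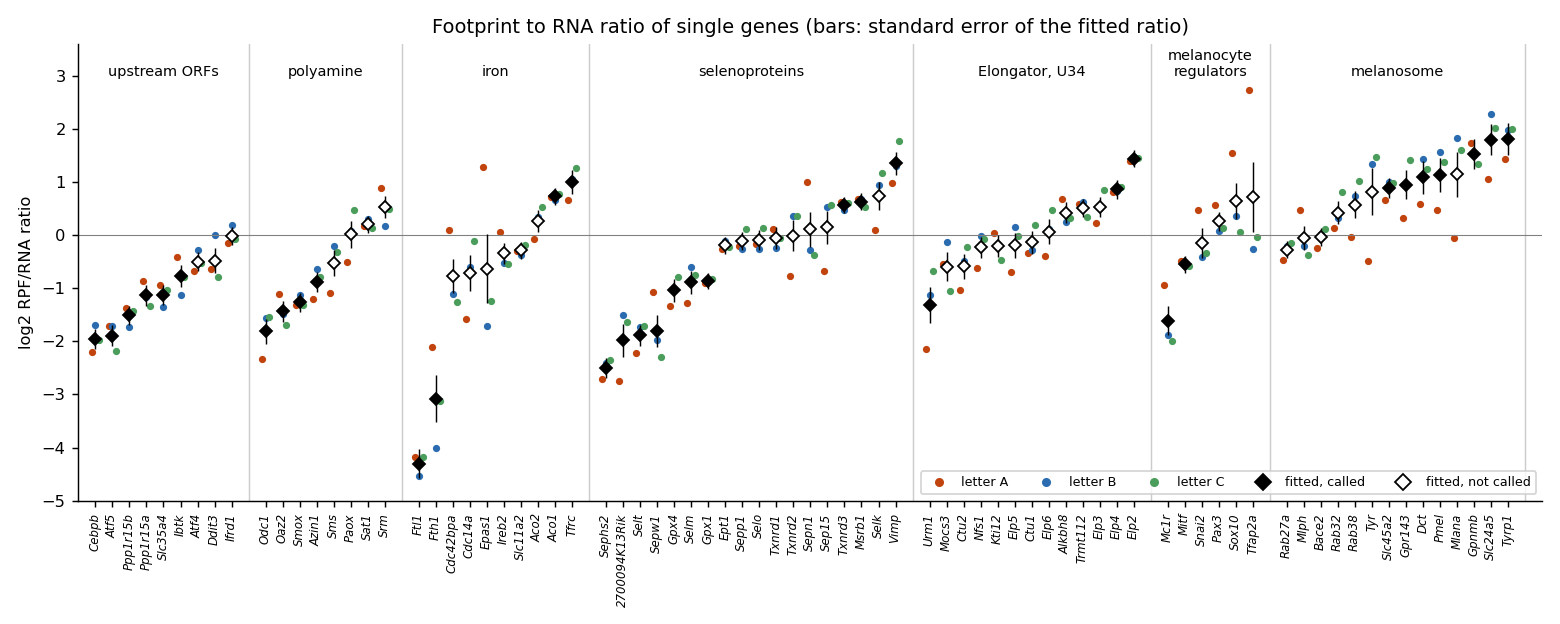
Log2 footprint to RNA ratio of the genes reported from 7 lists, with the fitted ratio and its SE (diamonds, filled where called at an adjusted p of 0.05) and the ratio in each letter (coloured dots). The ferritin genes Ftl1 and Fth1 lie lowest, at -4.30 and -3.08, and the melanosome proteins Tyrp1 and Slc24a5 highest, at 1.81 and 1.80.

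Leaving aside the marker lists of other cell types, lysosomal genes had the highest list median in the main fit. Extracellular matrix genes and integrins were close (1.02 against 1.01), and the order changed with the setting. Melanosome genes had the highest median without letter A (1.27 against 1.14 for lysosomal genes) and without the replicate block (1.06 against 1.01). Extracellular matrix genes had it with a minimum count of 50 (1.02 against 0.97) and without letter C (1.01 against 0.92). Of 21 lysosomal genes tested, 13 were higher and 0 lower, with a median of 1.02 (21 higher without letter A, 5 without B or C), and 20 of 21 were above 0 in each of the 3 letters, against 31.4% of all genes tested. Ctsa, a lysosomal protease that shields other hydrolases, had 213, 163 and 152 CPM of RNA and 794, 640 and 599 CPM of footprints (1.95, SE 0.18, edgeR adjusted p = 0.00611). Lamp2, a protein of the lysosomal membrane, was at 1.66 (SE 0.20) and Atp6v1h, a subunit of the proton pump, at 1.58 (SE 0.17). Among 19 endoplasmic reticulum chaperones and translocon genes, 9 were higher and 0 lower (median 0.77), with 15 higher without letter A, 2 without B and 3 without C. Hsp90b1, the reticulum's HSP90, had 2523, 1493 and 1500 CPM of RNA and 9564, 5677 and 5778 CPM of footprints, and its ratio was 1.92 to 1.95 in the 3 letters (1.93, SE 0.25, edgeR adjusted p = 0.00918). Calr was at 1.65 (SE 0.26) and Hspa5, which encodes BiP, at 1.44 (SE 0.25). Extracellular matrix genes and integrins had 8 of 19 higher and 1 lower (median 1.01). Without letter A they had 12 higher and 5 lower (median 0.64), and without B, 3 higher. The inhibitor Timp1 was at 1.40 (SE 0.19) and the integrin Itgb5 at -0.78 (SE 0.20).

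As in other lists, the calls in 3 housekeeping lists depended on which letters were used. Proteasome subunits had 15 of 36 higher and 0 lower (median 0.67), among them Psma6 at 1.83 (SE 0.25) and Psmb2 at 1.77 (SE 0.20). Nuclear-encoded subunits of the respiratory chain and ATP synthase had 20 of 73 higher and 2 lower (median 0.67), from Atp5j at 2.36 (SE 0.17) to Cox7c at -1.56 (SE 0.37). Mitochondrial ribosomal proteins had 18 of 77 higher (against 15.2% of all genes) and 4 lower (median 0.37). The median in letters A, B and C was 0.17, 0.94 and 1.07 for the proteasome, -0.08, 0.94 and 1.04 for respiration and -0.19, 0.61 and 0.60 for mitochondrial ribosomes. In letter A the RNA of the median gene of these 3 lists was 0.91, 1.21 and 0.81 log2 units above the mean of B and C, and its footprints differed by -0.08, 0.15 and 0.08. Without letter A, 35 of 36, 66 of 73 and 58 of 77 were higher, against 38.1% of all genes, and without B, 3, 6 and 2 were. DESeq2 called 33 of the respiration genes higher.

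Chaperones of the cytosol and mitochondria had 10 of 22 higher and 1 lower (20 and 2 without letter A, 2 and 1 without B or C). The lower one was Hspa1b, an inducible HSP70, at -2.33 (SE 0.27). Hspa1a, also in this list, is a near-identical copy that can share reads with it, so the Hspa1b value is uncertain. The cytosolic HSP90 gene Hsp90aa1 was at 1.37 (SE 0.30). Cell cycle and replication genes had 10 of 38 higher and 0 lower (median 0.59; 34 and 2 without letter A, 2 higher without B), with Plk1, a mitotic kinase, at 1.56 (SE 0.16). In letter A the median gene of this list was 0.71 log2 units below B and C in RNA and 1.40 below in footprints. Glycolysis enzymes had 5 of 17 higher (14 without letter A, 0 without B), among them Pfkp at 1.16 (SE 0.17), and Eno1 alone was lower.

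Actin, tubulin and their partners had 4 of 17 higher and 1 lower (median 0.18; 10 and 3 without letter A). The actin-binding protein gene Pfn1 was at 1.86 (SE 0.23) and the tubulin Tuba1b at -1.03 (SE 0.27). Tuba1b can share reads with the similar genes Tuba1a and Tuba1c, so its value is uncertain. Replication-dependent histones had 9 of 36 higher and 2 lower (29 and 5 of 38 without letter A; median 0.46), with medians of -0.45, 1.01 and 0.61 in letters A, B and C. Hist1h2af was at 1.97 (SE 0.24) and Hist1h4b at -1.55 (SE 0.41), and near-identical histone genes can share reads, so these values are uncertain. Among the few markers of other cell types that could be tested, Cd68, a lysosomal protein of macrophages, was higher in footprints (1.99, SE 0.18), as were the fibroblast markers Postn (1.35, SE 0.18) and Pdgfrb (1.18, SE 0.28), while Lyz2 (0.30, SE 0.43) was not called.

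**Figure D5:**
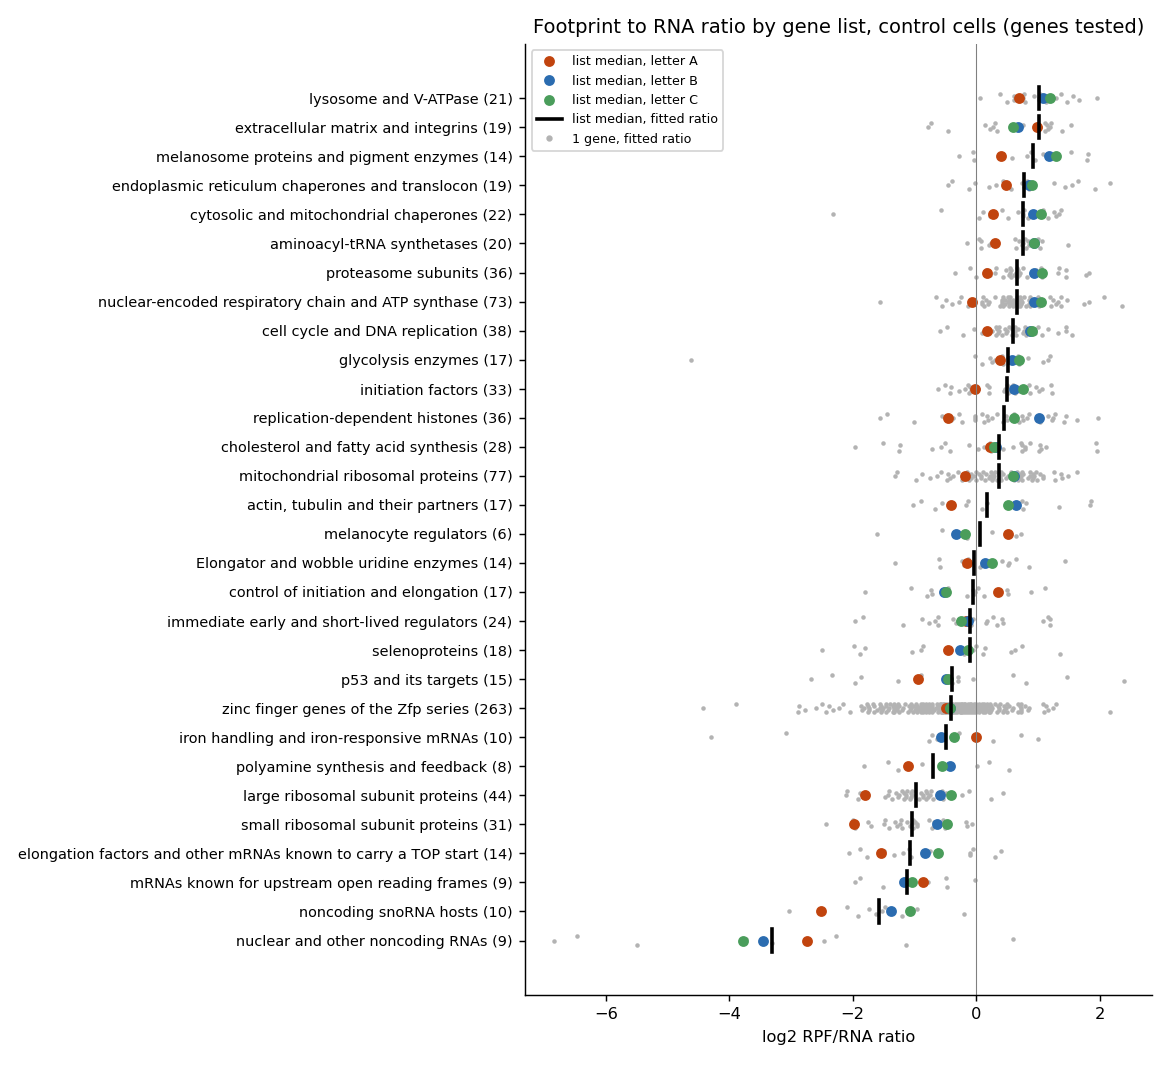
Log2 footprint to RNA ratio of the 30 gene lists with 6 or more genes tested, ordered by median, with grey dots for genes, black bars for the median of the fitted ratio and coloured dots for the median in each letter. Lysosomal genes had the highest median (1.02) and noncoding RNAs the lowest (-3.32), and letter A lies lowest of the letters for both lists of ribosomal proteins.

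Zinc finger genes of the Zfp series, most of them repressors of the KRAB type, formed the longest list, and 70 of 263 were lower and 10 higher (146 and 37 of 278 without letter A, 40 and 3 without B). Their median was -0.42 and was near equal in the letters, at -0.49, -0.43 and -0.43. Short-lived regulators were mixed, with 5 of 24 lower and 2 higher (12 and 6 without letter A). Jund, an AP-1 subunit, was at -1.97 (SE 0.21) and Ier5 at -1.83, while Cyr61, a matricellular growth factor, was at 1.20 (SE 0.16). Cholesterol and fatty acid genes had 10 of 28 higher and 4 lower (16 and 8 without letter A, 2 and 4 without B). The feedback gene Insig1 (-1.96, SE 0.20) and the sensor Scap (-1.50, SE 0.19) were lower, and the synthesis enzyme Nsdhl was higher (1.95, SE 0.22).

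Trp53 was higher in footprints, and genes known as p53 targets lay on both sides. Trp53, the tumour suppressor p53, had 11.1, 57.7 and 56.4 CPM of RNA and 137, 205 and 199 CPM of footprints (2.39, SE 0.43, edgeR adjusted p = 0.0159). Its ratio was 3.61 in letter A, where its RNA was low, and 1.82 in both B and C. Zmat3, a zinc finger RNA-binding target, had 104, 279 and 269 CPM of RNA and 43.9, 29.3 and 24.2 CPM of footprints (-2.68, SE 0.51, edgeR adjusted p = 0.0183). Ccng1, cyclin G1, was at -2.34 (SE 0.23), the apoptosis inducer Bbc3 at -1.96 (SE 0.24), Trp53inp1 at -1.86 (SE 0.20) and Gadd45a at -1.27 (SE 0.18). The cell cycle inhibitor Cdkn1a (1.48, SE 0.37) and the death receptor Fas (0.80, SE 0.22), named after their values were seen, were higher like Trp53. In all, 7 of 15 genes were lower and 3 higher (10 and 4 without letter A).

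The extremes among well-counted coding genes were named by rank, 12 at each end. At the lower end were Tgoln1 (-6.35, SE 0.25), Lrrc17 (-6.34, SE 0.25), Glrx3 (-5.92, SE 0.29), Eno1 (-4.62, SE 0.22), Zfp91 (-4.43, SE 0.24) and Ftl1. Below them in size came Map3k10, Cenpb, Tmem170b, Tcf20, Zfp575 and Tmcc2, from -4.01 to -3.71. Glrx3, a glutaredoxin of iron-sulphur transfer, had 1523, 679 and 677 RNA counts and 8, 13 and 11 RPF counts. Eno1 has the near-identical copy Eno1b, with 25 to 75 RNA counts and 0 to 3 RPF counts, and Lrrc17 and Zfp91 overlap other coding genes, so their ratios may not be those of the named mRNA.

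Among the highest 12, Rnf225 (3.88, SE 0.82) overlaps an annotated small nuclear RNA. It was followed by S100a11, a calcium-binding protein (3.83, SE 0.83). S100a11 had 28 RNA counts in letter A against 221 and 241, and its ratio was 6.34 in letter A, 3.05 in B and 2.61 in C. Rnasek (2.79, SE 0.21), Ubl5 (2.55, SE 0.24), the glycosyltransferases Alg8 (2.52, SE 0.22) and Alg3 (2.51, SE 0.25), Ndufab1 (2.49, SE 0.24) and B2m (2.34, SE 0.22) had ratios of 1.96 or more in each letter. B2m, the light chain of MHC class I, had 908, 395 and 372 CPM of RNA and 4436, 1957 and 2015 CPM of footprints, and its ratio was 2.29 to 2.44. Of the 24 extremes, 11 overlap another annotated gene, and without a stated strand setting the reads of overlapping genes cannot be told apart.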

How the data were processed

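Both kinds of library came from Illumina's TruSeq kit for ribosome profiling, per the labels. The values deposited by the authors are raw read counts for each gene symbol. The submitters' processing notes name TopHat2 2.1.1, Bowtie, HTSeq and bcl2fastq, and the build mm10. The annotation, the counted feature (coding sequence or whole exons), strand and the treatment of multiple matches: not given in the sources used here.

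Only the 6 shControl columns were used. Genes passed filterByExpr (edgeR 4.0.16, R 4.3.3, minimum count 10) in each fraction. Libraries were scaled by TMM, and RPF was tested against RNA with glmQLFit and glmQLFTest, with letter as a replicate block because the labels tie the libraries, and with Benjamini-Hochberg adjustment over 10583 genes. Same-letter deviations from the fraction means correlated at r = 0.477 (A), 0.504 (B) and 0.415 (C), and those of B with C at 0.294 and 0.327, so the values mainly set letter A apart and the pairing rests on the labels. CPM is scaled by TMM, and a ratio within a letter uses a prior count of 2. SE is the log2 ratio divided by the root of F. The functions were tested on simulated counts.

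Symbols were matched to RefSeq (GRCm38.p6), 23204 by symbol and 1096 by synonym of 24421. The 33 gene lists and the genes named (12 extremes at each end among called coding genes of mean log2 CPM 4 or more with 1 direction in all letters, up to 4 called members and the highest and lowest of each list, and all members of the short regulatory lists) were chosen with earlier results of these data known. Rnu11 and the 6 genes whose starts are printed fall outside that rule and were chosen after their values were seen, as were GC content and ATG. A few genes within the rule are not reported here. Alternatives were DESeq2 1.42.0, limma voom 3.58.1, other scalings and filters, no block, and leaving out each letter. Depth limits low genes. With 2 letters the spread rests largely on what all genes share, so its fitted ratios and counts of calls are given without p-values.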

Additional observations from a re-analysis of the deposited data

How the results depend on the processing

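Directions held better than counts, though every setting shares libraries with the main fit, so like directions were likely beforehand. All 3736 calls kept their direction in every setting in which they were still called, and 4 named genes that were not called with 3 letters were called on the other side of 0 when letter A was left out: Rps13 to 0.46 (-0.42 without letter C), Qars to 0.49 (-0.54 without C), Sepn1 to -0.31 (0.36 without C) and Txnrd2 to 0.37 (-0.21 without B). The cause was not tested. Leaving out 1 letter gave from 1619 (without B) to 8532 (without A) genes called, 530 to 4159 of them higher and 1089 to 4373 lower. The share of calls that were higher was 43.0% with all letters, 32.7% without B and 48.7% without A.

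Without the replicate block, that is without pairing RPF and RNA by letter, 2443 genes were called, 884 of them higher. Of the genes that could be named, 45 lost their call without the block, 57 without letter B and 46 without letter C. None lost it without letter A, where most of all genes were called. All other scalings, filters and tools gave counts over all genes within 1.5 times the values in the report, but counts within single lists moved more, for example from 8 lower small-subunit genes to 21 with DESeq2 and 17 with total counts, and from 3 and 2 higher selenoproteins and short-lived regulators to 1 and 1 with total counts. The share of calls that were higher ran from 36.8% with total counts only to 49.0% with DESeq2. Over the genes shared with the main fit, the median change of a gene's log2 ratio was at most 0.09 in size with other scalings. Leaving out the filter gave a median change of 0.11 over the shared genes. The median ratio of all genes was then -0.22 over 18086 genes, against -0.02 in the main fit.

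Of 401 list medians under these settings, 374 moved by less than the spread between letters. That spread is the SD of the list's medians in the 3 letters, which is wide where letter A stands apart. Small-subunit genes, with a median of -1.05 and of -0.54 without letter A, are therefore among the 374. The count is thus no measure of stability. The short-lived regulators moved from -0.10 to -0.17 without the block, -0.041 with DESeq2 and with RLE size factors, -0.18 with total counts, -0.35 with a minimum count of 50, and -0.10 to -0.19 with a letter left out. The Zfp genes moved from -0.42 to -0.36 with DESeq2, RLE or no filter and to -0.50 with total counts. Cholesterol and fatty acid genes, at 0.38, were at 0.30 without the block, 0.43 with DESeq2, RLE or without the 20 most abundant genes, 0.29 with total counts, 0.32 with a minimum count of 50, 0.48 with no filter, and 0.30 to 0.55 with a letter left out. With a letter left out, Elongator and wobble uridine enzymes ran from -0.10 to 0.19, glycolysis from 0.43 to 0.72, and extracellular matrix from 0.64 to 1.01. With no filter, melanocyte regulators were at 0.52 and fibroblast markers at -0.78. With a minimum count of 50, p53 targets were at -0.70 and noncoding RNAs at -1.86, with fewer genes in each list.

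A planned split of ratios by coding length was not run, since protein sequences were not used here. Genes under the count minimum in either fraction were left out, so very low ratios of scarce mRNAs are not seen. No spike-in is named in the labels, and each ratio is relative to the other genes.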
